A study of Mus musculus with 8 samples.

Results

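The mitochondrial respiratory chain and the ATP synthase were followed in mouse cumulus cells through the hours between the ovulatory stimulus and ovulation. Members were all probe sets whose only platform gene symbol named a subunit or assembly factor of complexes I to IV, cytochrome c (Cycs) or the ATP synthase, matched by symbol pattern (Nduf, Sdha to Sdhd, Uqcr, Cox with a number, Atp5, Cycs). This gave 104 probe sets for 76 genes, out of 12422 probe sets and 8251 genes measured. Each gene was represented by its probe set of highest mean, and 21 genes had several. The set held 29 subunits of complex I, 4 of complex II, 7 of complex III, 14 of complex IV, 14 of the ATP synthase, Cycs and 7 assembly factors. No probe set named any of the 13 subunits encoded in mitochondrial DNA, so all members are nuclear genes. A further 11 probe sets that named a member together with another gene or a pseudogene, for example Cox7c, Ndufb4 and Ndufs6, were left out by the single-symbol condition.

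Cumulus cells are the somatic cells around the oocyte. The study compared EP2KO mice, which are Ptger2-/- and so lack the prostaglandin E2 receptor EP2, with WT mice, all labelled C57Bl/6. Females of 3 to 4 weeks in both genotypes received 5 IU of PMSG, an FSH-like hormone, and after 48 h, except in the 0 h groups, 5 IU of hCG, an LH-like hormone. One array was made per genotype and time, the times being 0 h, 3 h, 9 h and 14 h from the hCG injection, so there were 8 arrays, no replicate of any group, and no label saying how many mice or complexes a sample pooled. Cells of 0, 3 and 9 h were stripped by hand from complexes of punctured follicles, whereas those of 14 h came from ovulated complexes taken from the oviduct and were released with 0.1% hyaluronidase, so that ovulation and collection cannot be told apart at 14 h.

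Complex I oxidises NADH, complex II oxidises succinate, and both pass electrons through ubiquinone to complex III, cytochrome c and complex IV, where oxygen is reduced. Complexes I, III and IV pump protons across the inner mitochondrial membrane, and the ATP synthase uses the returning protons to make ATP. Cumulus cells are known for a strongly glycolytic metabolism and feed pyruvate to the oocyte, which depends on its own mitochondria for ATP. Nuclear genes of the chain are commonly described as targets of the transcription factors NRF1, GABPA (an ETS factor), YY1 and the estrogen-related receptors.

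Promoters of 3 members are printed because these genes carried some of the largest changes among members in which a searched motif was found: Atp5e, with the largest fall at 14 h against 0 h, and Ndufa6 and Atp5l, both among the 5 largest rises at 3 h and chosen after their values were seen. The sequences are from RefSeq on GRCm38.p6, run 5′ to 3′ on the gene's strand, and cover 250 bases before to 50 bases after the annotated start. Capitals mark a match to CCGGAAG (ETS factors, read here from the other strand as CTTCCGG) in Atp5e and Atp5l, and to the NRF1 motif, also on the other strand, in Ndufa6.
Atp5e: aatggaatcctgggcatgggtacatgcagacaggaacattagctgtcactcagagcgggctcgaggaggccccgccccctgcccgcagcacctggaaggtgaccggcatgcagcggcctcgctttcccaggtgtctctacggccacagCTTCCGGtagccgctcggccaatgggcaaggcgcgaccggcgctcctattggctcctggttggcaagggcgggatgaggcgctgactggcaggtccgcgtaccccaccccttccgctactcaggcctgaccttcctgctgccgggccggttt
Atp5l: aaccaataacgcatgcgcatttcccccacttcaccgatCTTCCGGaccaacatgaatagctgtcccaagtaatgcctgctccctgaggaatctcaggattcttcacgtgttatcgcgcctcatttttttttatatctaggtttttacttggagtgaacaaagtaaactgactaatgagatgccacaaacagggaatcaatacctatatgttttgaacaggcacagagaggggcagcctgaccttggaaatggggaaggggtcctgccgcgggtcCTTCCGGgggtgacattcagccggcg
Ndufa6: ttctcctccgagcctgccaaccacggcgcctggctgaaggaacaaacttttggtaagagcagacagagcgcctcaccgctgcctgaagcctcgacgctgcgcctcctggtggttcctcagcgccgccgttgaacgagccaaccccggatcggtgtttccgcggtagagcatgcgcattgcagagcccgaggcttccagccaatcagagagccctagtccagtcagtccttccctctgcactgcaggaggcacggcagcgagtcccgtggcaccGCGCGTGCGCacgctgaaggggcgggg
The Atp5e window is chr2:174464052-174464351 on the minus strand, the Atp5l window chr9:44920693-44920992 on the minus strand and the Ndufa6 window chr15:82354242-82354541 on the minus strand. The match lies at −102 from the start in Atp5e, at −212 and 24 in Atp5l and at 23 in Ndufa6, counted to its first base on the gene's strand with the start as 0. Both strands were searched for CCGGAAG, the NRF1 motif, AAGATGGC (YY1) and TCAAGGTCA (estrogen-related receptor) in the 61 members with an entry in the promoter table. CCGGAAG was found in 19 members, which is 31.1%, against 17.1% of 6573 genes on the array and 9.93% of all 27025 genes of the table. The NRF1 motif was found in 12 members (19.7%), against 9.97% of genes on the array. AAGATGGC was found in 9 members (14.8%), against 4.61% of genes on the array, and TCAAGGTCA in 1 member (1.64%), against 0.304%. In all, 35 of the 61 (57.4%) held at least 1 of the 4 motifs, against 27.9% of genes on the array. The motif searches are descriptions of these windows only, and no test was made of them.

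The arrays were Affymetrix MG_U74Av2, and signals are the log2 values deposited by the authors, which ran from 3.25 to 15.1. The array medians over all probe sets lay between 7.79 and 7.89. The authors' processing brings arrays to a like level, so close medians cannot show whether an array stood apart. The standard deviation over all probe sets was 1.84 in EP2KO and 1.77 in WT cells at 0 h. At 3 h it was wider, 1.96 in EP2KO and 1.99 in WT cells. With quantile normalization, which gives all arrays the same spread, the members' median change at 3 h against 0 h was 0.34. It was 0.65 with the values as deposited. The part of the spread in the single changes below was not tested. Ptger2 read 4.57, 4.24, 4.69 and 4.51 at 0, 3, 9 and 14 h in EP2KO cells and 4.95, 5.97, 5.37 and 5.33 in WT cells, all low signals, lower in EP2KO at every time. A change is called a rise or a fall below where limma's adjusted p was under 0.05 in a fit with time and genotype as terms, in which the EP2KO and WT arrays of a time serve as its 2 values. Standard errors (SE) come from that fit, and p-values measure only the spread among these single arrays, which may be technical. In such tissue samples fewer cells of a type and less RNA per cell cannot be told apart.

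Most of the 76 genes had a higher signal at 3 h than at 0 h, and most had a lower one at 14 h than at 9 h. The median signal of the 76 genes was 9.93, 10.96, 10.62 and 9.33 at 0, 3, 9 and 14 h in EP2KO cells and 9.66, 10.96, 10.34 and 9.48 in WT cells. Both genotypes thus had their highest median at 3 h and their lowest at 14 h. In 45 of the 76 genes (59.2%) the highest signal was at 3 h in both genotypes, against 15.1% of all probe sets. In 41 genes (53.9%) the lowest signal was at 14 h in both, against 14.8% of all probe sets.

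**Figure D1:**
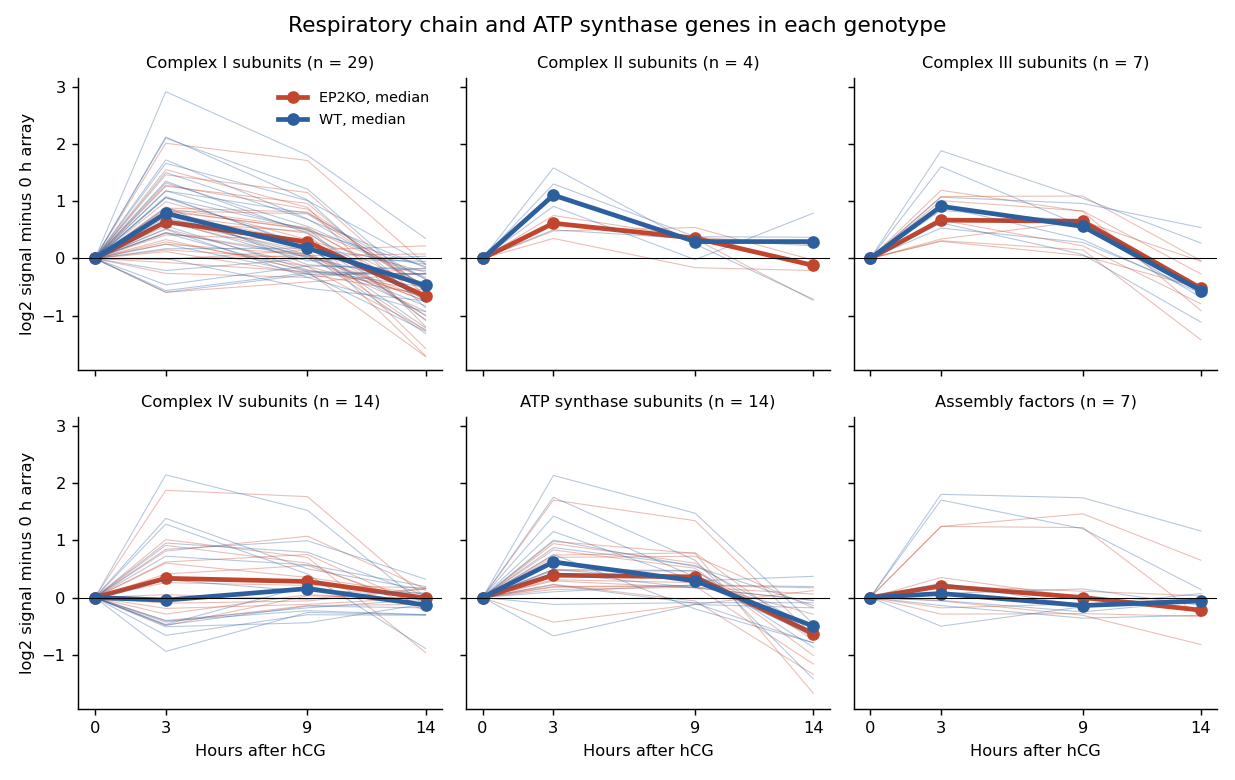
Log2 signal of each gene minus its own 0 h array (y axis) against hours after hCG (x axis), by complex, with thin lines for genes and thick lines with points for the median of a complex in EP2KO (red) and WT (blue). Medians of complexes I, II and III lie above 0 at 3 h, and those of complexes I and III and of the ATP synthase lie below 0 at 14 h.

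The 3′ to 5′ control difference of the arrays moved with these medians. The difference is the log2 signal of the Gapdh control probe set at the 3′ end of the mRNA minus that at its 5′ end, and it is larger where RNA or amplified product is shorter. It was 1.48, 0.96, 1.22 and 2.82 at 0, 3, 9 and 14 h in EP2KO cells and 1.86, 0.80, 1.71 and 2.87 in WT cells. The arrays with the smallest differences, those of 3 h, had the highest medians of the respiratory genes, and the arrays with the largest, those of 14 h, the lowest. At 0 and 9 h the EP2KO array had the smaller difference and the higher median of the respiratory genes. At 3 h it had the larger difference, 0.96 against 0.80, and the same median, 10.96. At 14 h it had the smaller difference, 2.82 against 2.87, and the lower median, 9.33 against 9.48. The same difference for Actb was 0.69, 0.76, 1.12 and 1.37 in EP2KO cells and 0.97, 0.73, 1.54 and 1.61 in WT cells, so it was also largest at 14 h within each genotype, but at 9 h it already exceeded the 0 h value.

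**Figure D2:**
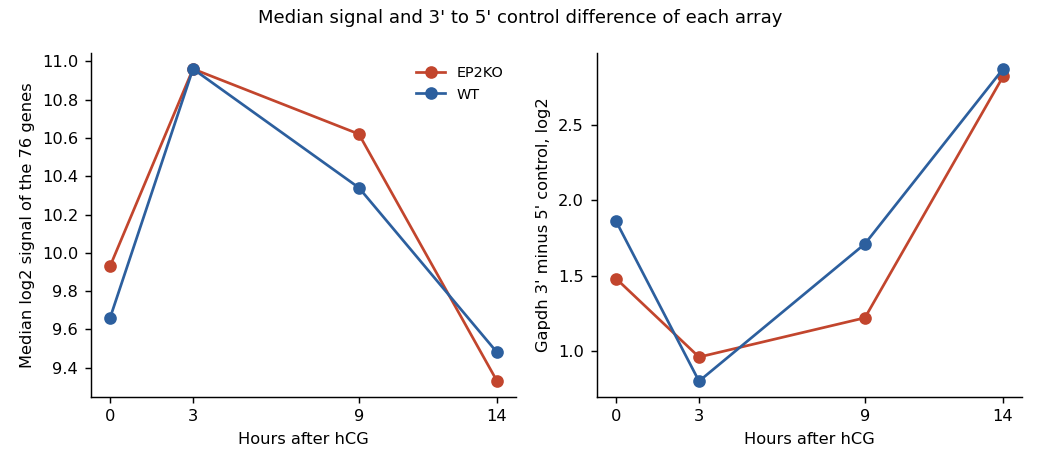
Median log2 signal of the 76 genes (left) and the Gapdh 3′ minus 5′ control difference on the log2 scale (right) against hours after hCG, 1 point per array, EP2KO in red and WT in blue. The left panel peaks at 3 h at 10.96 in both genotypes, where the right panel is lowest at 0.96 in EP2KO and 0.80 in WT, and the 14 h arrays are lowest on the left and highest on the right.

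A fit with the Gapdh difference added as a covariate, chosen after seeing the data, gave lower counts in all 4 time comparisons. It called none of the 76 genes at 3 h against 0 h, at 14 h against 0 h or at 14 h against 9 h, where the fit without it called 59, 35 and 47. Over all probe sets it called 0.105%, 1.8% and 0% in these comparisons, against 42.8%, 28.8% and 20.1% without it. The covariate and time overlap, and the median SE of the 76 genes grew to 0.269, 0.381 and 0.442 with the covariate, against 0.139 without it. In these comparisons 17, 13 and 5 of the 76 genes had an unadjusted p under 0.05 with the covariate. Over all 12422 probe sets the counts were 988, 2192 and 1213. The median change of the 76 genes was 0.35 at 3 h with the covariate, against 0.65 without it, and −0.04 at 14 h against 0 h with the covariate, against −0.36 without it. At 14 h against 9 h it was −0.23 with the covariate, against −0.79 without it. At 9 h against 0 h the covariate fit still called 21 genes, all higher, at a median SE of 0.13, against 17.3% called over all probe sets. The counts that follow are those of the fit with time and genotype alone.

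At 3 h against 0 h, 52 of the 76 genes rose (68.4%) and 7 fell (9.21%), while 17 did not pass the test. Over all probe sets 17.4% were called higher and 25.4% lower. The median change of the members was 0.65 on the log2 scale, against −0.135 over all probe sets. It was 0.50 in EP2KO alone and 0.75 in WT alone, and 58 genes were higher at 3 h in both genotypes. At least 2-fold rises were called for 24 genes and at least 2-fold falls for none. At 9 h against 0 h, 29 genes rose (38.2%) and 1 fell (1.32%), with 10.9% of all probe sets called higher and 12.1% lower, and the members' median was 0.25 against −0.08 over all probe sets. At 14 h against 0 h, 1 gene rose (1.32%) and 34 fell (44.7%), with 13.5% of all probe sets called higher and 15.2% lower, and the median was −0.36 against −0.06. These 3 comparisons share the 0 h arrays. From 9 h to 14 h, 47 genes fell (61.8%) and none rose, at a median of −0.79 against 0.03 over all probe sets, where 10% were called higher and 10.1% lower. All 3 genes that were higher at 14 h than at 9 h in both genotypes missed the threshold, and 58 were lower in both. The count of rises at 9 h was 13 without the EP2KO 9 h array or without the WT 0 h array, that of falls at 3 h was 1 without the WT 0 h or the WT 3 h array, and that of falls at 14 h against 0 h was 22 without the EP2KO 0 h array. The median at 14 h against 0 h was −0.24 without the EP2KO 14 h array.

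**Figure D3:**
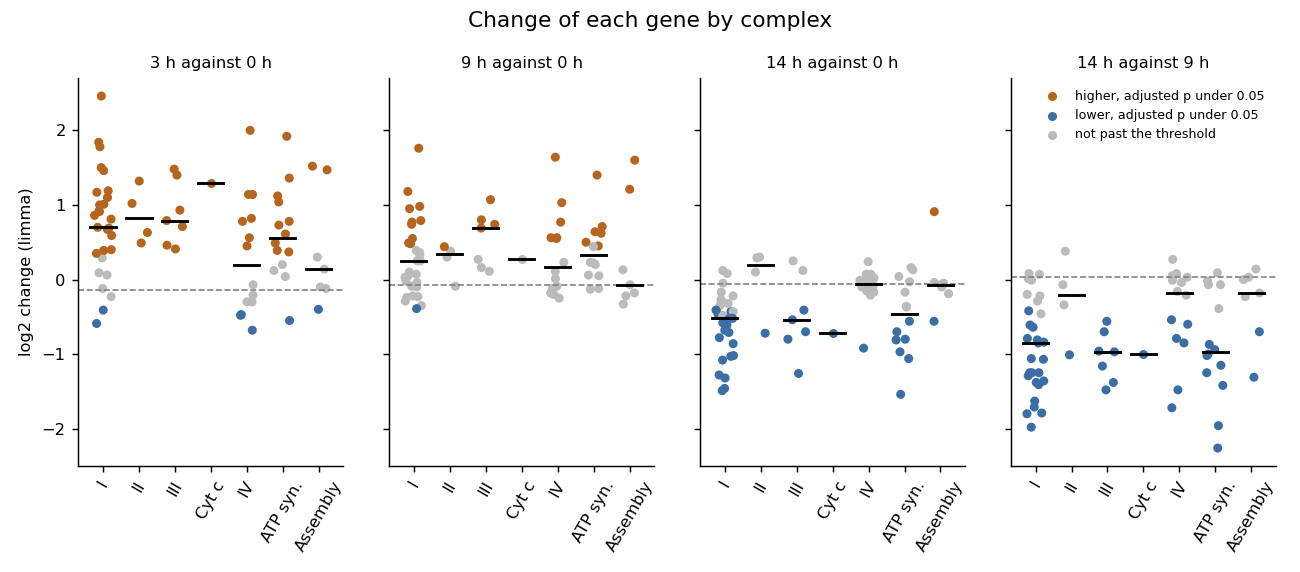
Log2 change of each gene (y axis) in the 4 time comparisons, by complex (x axis), with genes called higher in brown, called lower in blue and not past the threshold in grey. Black bars are the medians of the groups and the dashed line the median of all probe sets; complex III has its median at 0.79 at 3 h against 0 h and at −0.97 at 14 h against 9 h.

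Complex I, the entry point for electrons from NADH, held the most members. At 3 h 21 of its 29 measured subunits rose and 2 fell, at a median of 0.70, and at 9 h 10 rose and 1 fell. At 14 h against 0 h 18 fell and none rose, at a median of −0.52, and from 9 h to 14 h 21 fell, at a median of −0.85. The largest rise of all 76 genes was that of Ndufa6, an accessory subunit of the LYR protein family. It read 7.38, 9.39, 9.09 and 7.28 at 0, 3, 9 and 14 h in EP2KO cells and 7.0, 9.91, 8.80 and 7.35 in WT cells. Both 3 h signals and both 9 h signals lay above all 0 h and 14 h signals, and the change at 3 h was 2.46 ± 0.192 (SE), or 5.5-fold (limma adjusted p = 3.14e-05). At 14 h Ndufa6 stood at 0.12 ± 0.192 against 0 h, which did not pass.

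Ndufb8 and Ndufb10 are accessory subunits of the membrane arm. Ndufb8 read 9.67, 11.22, 10.56 and 8.48 in EP2KO cells and 9.17, 11.29, 10.19 and 8.31 in WT cells. Its 14 h signals were the lowest of the 8 arrays and its 3 h signals the highest, with a rise of 1.84 ± 0.146 at 3 h against 0 h (limma adjusted p = 3.45e-05) and a fall of −1.98 ± 0.146 at 14 h against 9 h (limma adjusted p = 1.54e-05). Ndufb10 read 8.58, 10.04, 9.73 and 7.93 in EP2KO cells and 8.17, 10.27, 9.38 and 7.60 in WT cells. It had the same order of times in both genotypes, with 1.78 ± 0.16 at 3 h and −1.79 at 14 h against 9 h. A second Ndufb10 probe set, of mean 6.11, changed by −0.1 at 3 h and −0.3 at 14 h against 9 h, neither past the threshold. Ndufab1, the acyl carrier protein of mitochondria and a complex I subunit, rose by 1.46 at 3 h and by 0.98 at 9 h.

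The 4 complex I subunits with the largest falls at 14 h against 0 h differed in their 3 h change, which ran from 0.09 for Ndufc1 to 0.92 for Ndufv2. Ndufc1, a small membrane arm subunit, read 11.48, 11.41, 11.25 and 9.77 in EP2KO cells and 11.26, 11.51, 11.0 and 9.99 in WT cells. The 6 earlier signals lay within 11.0 to 11.51 and both 14 h signals below 10, a fall of −1.49 ± 0.143 at 14 h against 0 h (limma adjusted p = 3.17e-05), while the 3 h change of 0.09 did not pass. Ndufv2, an iron-sulfur subunit of the NADH-oxidising module, read 10.51, 11.29, 10.80 and 8.81 in EP2KO cells and 10.23, 11.29, 10.45 and 9.02 in WT cells, and fell by −1.46 ± 0.149 at 14 h against 0 h. Ndufb2, another membrane arm subunit, read 11.40, 12.16, 11.84 and 9.83 in EP2KO cells and 11.15, 12.21, 11.66 and 10.08 in WT cells, and fell by −1.32 ± 0.141 at 14 h against 0 h. Ndufa5, an accessory subunit of the peripheral arm, read 12.24, 12.89, 12.37 and 10.98 in EP2KO cells and 12.17, 12.89, 12.24 and 10.86 in WT cells, and fell by −1.28 ± 0.114 (limma adjusted p = 1.81e-05). By these probe sets the 14 h arrays of both genotypes lay below every earlier array in each gene. A second Ndufv2 probe set, of mean 8.33, changed by 0.07 at 14 h against 0 h, which did not pass. The other Ndufb2 probe sets changed by −0.70, −0.63 and −0.10, the last not past the threshold. With the Gapdh covariate the 14 h changes were −0.69 for Ndufc1, −0.63 for Ndufv2, −0.65 for Ndufb2 and −1.13 for Ndufa5, none past the threshold.

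The 4 measured core subunits, which carry the cofactors and the quinone site, moved less at 3 h than the largest accessory changes. Ndufv1, which binds NADH, rose by 0.39, Ndufs1, an iron-sulfur subunit, by 0.59, Ndufs3 by 0.40 and Ndufv2 by 0.92. The median change at 3 h was 0.50 for these 4 core genes and 0.81 for the 25 accessory genes, and no test was made of that difference. None of the 4 core genes passed at 9 h against 0 h, where 10 accessory genes rose. Ndufs4, an accessory subunit mutation of which causes Leigh syndrome in humans, was the 1 member called lower at 9 h against 0 h, at −0.39 ± 0.118 (limma adjusted p = 0.0357). It read 7.48, 7.60, 7.21 and 6.85 in EP2KO cells and 7.50, 7.50, 6.98 and 6.76 in WT cells, a low signal that lost its call in several other settings.

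The subunits that fell at 3 h were Ndufa12 and Ndufa1. Ndufa12, an accessory subunit, read 7.45, 6.86, 7.04 and 7.19 in EP2KO cells and 7.45, 6.86, 7.17 and 7.18 in WT cells. Its 3 h signals were equal in both genotypes and the lowest of the series, a fall of −0.59 ± 0.114 (limma adjusted p = 0.00326), and it lies among the 40% of probe sets with the lowest means. Ndufa1 fell by −0.41.

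Complex II, succinate dehydrogenase, is also an enzyme of the TCA cycle. All 4 subunits rose at 3 h, at a median of 0.83, and 1 fell at 14 h. Sdhb, the iron-sulfur subunit, read 10.54, 11.61, 10.88 and 9.81 at 0, 3, 9 and 14 h in EP2KO cells and 10.17, 11.75, 10.42 and 9.46 in WT cells. It rose by 1.32 ± 0.152 at 3 h (2.51-fold, limma adjusted p = 0.000234) and fell by −0.72 at 14 h against 0 h. Sdhc, a membrane anchor, rose by 1.02 at 3 h, with 10.29, 11.04, 10.66 and 10.53 in EP2KO cells and 10.04, 11.34, 10.42 and 10.41 in WT cells. Its 14 h signals stayed above the 0 h signals in both genotypes, a change of 0.30 that did not pass. Sdhd, the other anchor, read 10.63, 11.11, 11.17 and 10.60 in EP2KO cells and 10.48, 10.98, 10.82 and 10.70 in WT cells. It rose at 3 h by 0.49 and at 9 h by 0.44. Sdha, the flavoprotein, rose by 0.63 at 3 h at a low signal of 7.51 in EP2KO and 7.54 in WT cells, against 7.16 in EP2KO and 6.63 in WT cells at 0 h.

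Complex III had all 7 measured subunits called in both phases: 7 rose at 3 h, at a median of 0.79, and 7 fell at 14 h against 9 h, at a median of −0.97. Uqcrh, the hinge protein at the cytochrome c side, read 9.89, 10.97, 10.98 and 9.85 in EP2KO cells and 9.56, 11.44, 10.61 and 9.83 in WT cells. It rose by 1.48 ± 0.186 at 3 h and stood at 0.12 at 14 h against 0 h, which did not pass. Uqcrq, a small subunit, read 12.67, 12.98, 12.82 and 11.25 in EP2KO cells and 12.46, 13.08, 12.53 and 11.35 in WT cells. Its 14 h signals lay below all others, a fall of −1.26 ± 0.136 against 0 h (limma adjusted p = 6.83e-05), after a 3 h rise of 0.46. Of the core proteins, Uqcrc1 rose by 0.79 and Uqcrc2 by 0.41 at 3 h, and they fell by −0.70 and −0.54 at 14 h against 0 h. Uqcr11 rose by 1.40 and Uqcr10 by 0.93 at 3 h, and Uqcrb, at 0.25 at 14 h against 0 h, did not pass there.

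Cycs, the electron carrier between complexes III and IV and an activator of the apoptosome when it leaves the mitochondrion, read 7.89, 9.02, 8.23 and 6.88 in EP2KO cells and 7.77, 9.22, 7.99 and 7.33 in WT cells. The 3 h signals were the highest and the 14 h signals the lowest in both genotypes. It rose by 1.29 ± 0.163 at 3 h (limma adjusted p = 0.000376) and fell by −0.72 at 14 h against 0 h (limma adjusted p = 0.00703), while 0.28 at 9 h did not pass. Cyct, the testis form of cytochrome c, read 7.22 to 7.57 over the 8 arrays and passed in no time comparison.

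**Figure D4:**
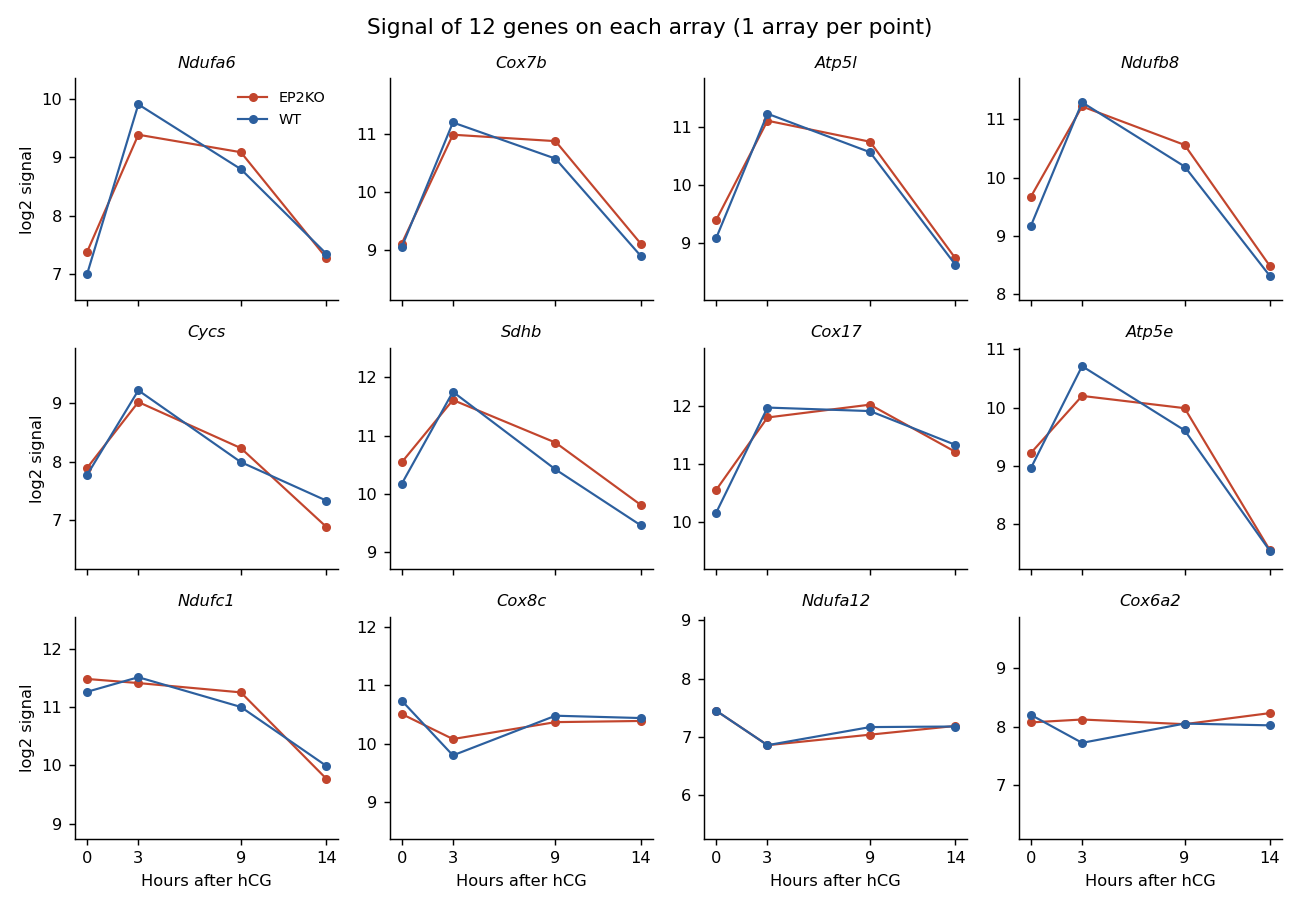
Log2 signal (y axis, each panel spanning 3.8 units) against hours after hCG for 12 genes, 1 point per array, EP2KO in red and WT in blue. Ndufa6, Cox7b and Atp5l peak at 3 h, Atp5e and Ndufc1 are lowest at 14 h, Cox17 is above its 0 h level at 14 h, and Cox8c and Ndufa12 dip at 3 h.

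Complex IV has subunits of general use and isoforms made in certain tissues. Of the 9 general subunits 6 rose at 3 h and 6 at 9 h, at medians of 0.78 and 0.56, and only Cox7a2 fell at 14 h against 0 h, by −0.92. Cox7b, a small nuclear subunit, read 9.11, 10.98, 10.87 and 9.11 in EP2KO cells and 9.05, 11.19, 10.57 and 8.90 in WT cells. Its 3 h and 9 h signals lay above all 0 h and 14 h signals, with rises of 2.0 ± 0.14 at 3 h (4.01-fold, limma adjusted p = 1.96e-05) and 1.64 at 9 h (limma adjusted p = 3.83e-05). Cox4i1, the ubiquitous form of subunit 4, rose by 0.56 at both 3 h and 9 h by its probe set of highest mean, 8.12. Its other probe set, of mean 7.92, went the other way, at −0.33 at 3 h and −0.29 at 9 h, neither past the threshold. Cox6a1 rose by 0.78 at 3 h and 0.77 at 9 h, and Cox6c by 0.82 at 3 h and 1.03 at 9 h. Cox5b rose by 1.14 at 3 h. Cox5a at −0.07, Cox6b1 at −0.30 and Cox8a at −0.30 did not pass at 3 h. From 9 h to 14 h 6 of the 9 general subunits fell, with Cox7b at −1.72 and Cox7a2 at −1.48.

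The tissue isoforms are the heart and muscle forms Cox6a2, Cox7a1 and Cox8b and the testis forms Cox6b2 and Cox8c. Of these 5, 3 fell and 1 rose at 3 h, at a median of −0.47, and none passed in any of the 3 other time comparisons. Cox8c read 10.51, 10.08, 10.37 and 10.39 in EP2KO cells and 10.74, 9.80, 10.48 and 10.44 in WT cells, a fall of −0.68 ± 0.139 at 3 h (limma adjusted p = 0.00413). Cox7a1 read 5.14, 4.65, 5.17 and 5.12 in EP2KO cells and 5.06, 4.59, 5.26 and 4.89 in WT cells, a fall of −0.48 ± 0.122 at 3 h. The 3 h signals were the lowest in both genes and both genotypes. Cox8b read 9.02, 8.73, 9.07 and 8.99 in EP2KO cells and 9.27, 8.61, 8.97 and 8.96 in WT cells, with a fall of −0.47 ± 0.129. Cox6a2, at −0.21, did not pass, with 8.07, 8.12, 8.04 and 8.23 in EP2KO cells and 8.20, 7.72, 8.05 and 8.02 in WT cells. Cox6b2 read 6.83, 7.43, 7.18 and 6.88 in EP2KO cells and 6.90, 7.21, 7.01 and 6.98 in WT cells and rose by 0.45 at 3 h. Of 15 muscle markers, which are genes of contractile proteins and creatine kinases, 6 (40%) were also called lower at 3 h, against 25.4% of all probe sets. The same share, 40%, was called lower among 15 leukocyte markers and among 10 theca and stroma markers. The summed linear signal of the muscle markers was 4059 to 4560 at 3 h, against 5368 to 6218 at 0 h. Of 12 oocyte markers 5 (41.7%) were called lower at 3 h. Their sum was 1964 at 3 h against 1777 at 0 h in EP2KO cells. In WT cells it was 1493 at 3 h against 2083 at 0 h, so the sum was higher at 3 h in EP2KO and lower in WT cells. The part of muscle, oocyte or other cells in these falls was not tested.

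In the ATP synthase 10 of 14 subunits rose and 1 fell at 3 h, at a median of 0.55, 6 rose at 9 h, 7 fell at 14 h against 0 h, and 9 fell at 14 h against 9 h. The catalytic F1 part was measured through Atp5a1 (alpha), Atp5c1 (gamma), Atp5d (delta) and Atp5e (epsilon), and all 4 rose at 3 h. Atp5e read 9.22, 10.20, 9.99 and 7.55 at 0, 3, 9 and 14 h in EP2KO cells and 8.96, 10.71, 9.61 and 7.54 in WT cells. Its 14 h signals were lowest by more than 1 log2 unit, the largest fall among all members: −1.54 ± 0.188 against 0 h (0.343 of the 0 h signal, limma adjusted p = 0.000154) and −2.26 ± 0.188 against 9 h (limma adjusted p = 2.87e-05). With the Gapdh covariate the 14 h change of Atp5e against 0 h was −0.05 (limma adjusted p = 0.95). Atp5a1, by contrast, stood at 0.16 at 14 h against 0 h, which did not pass.

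In the stalk and membrane part, Atp5l, subunit g of the membrane sector, read 9.40, 11.10, 10.74 and 8.74 in EP2KO cells and 9.09, 11.22, 10.56 and 8.63 in WT cells. It was highest at 3 h and lowest at 14 h in both genotypes, with 1.92 ± 0.131 at 3 h (3.77-fold, limma adjusted p = 1.8e-05) and −1.96 ± 0.131 at 14 h against 9 h (limma adjusted p = 9.7e-06). A second Atp5l probe set, of mean 7.41, changed by 0.28 at 3 h, which did not pass, and fell by −0.53 at 14 h against 9 h. Atp5o, the subunit that ties the stalk to F1, rose by 1.12 and Atp5j, coupling factor 6, by 1.04 at 3 h, and they fell by −0.81 and −0.70 at 14 h against 0 h. By their probe sets of highest mean, the isoforms of the c-ring subunit, which turns as protons pass, did not move alike. Atp5g1 read 9.35, 8.92, 9.23 and 9.47 in EP2KO cells and 9.48, 8.81, 9.36 and 9.30 in WT cells and fell at 3 h by −0.55 ± 0.127 (limma adjusted p = 0.00737). Atp5g2 did not pass at 3 h, at 0.20, and fell by −0.97 at 14 h against 0 h. The second probe sets of both genes, of lower mean, changed by −0.29 for Atp5g1 and −0.30 for Atp5g2 at 3 h. At 14 h against 0 h they changed by −0.14 and −0.21, and neither passed at either time. The isoforms encode the same mature protein, and the difference between their changes was not tested.

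Assembly factors are not part of the finished complexes. Of the 7 among the members, 2 rose and 1 fell at 3 h, at a median of 0.14. Cox17, which hands copper to complex IV, read 10.56, 11.80, 12.02 and 11.21 in EP2KO cells and 10.17, 11.97, 11.91 and 11.33 in WT cells. Every signal after hCG lay above both 0 h signals, and Cox17 was the 1 member that was called higher at 14 h against 0 h, by 0.91 ± 0.148 (1.87-fold, limma adjusted p = 0.00104), after 1.52 at 3 h and 1.6 at 9 h. With the Gapdh covariate it stood at 1.71 at 14 h, with a limma adjusted p of 0.0868. Cox16, another complex IV assembly factor, read 8.34, 9.58, 9.56 and 8.0 in EP2KO cells and 8.11, 9.81, 9.31 and 8.25 in WT cells and rose by 1.47 at 3 h and 1.21 at 9 h. Cox18, an insertase for a mitochondrially encoded complex IV subunit, fell by −0.40 at 3 h. In a longer list of assembly factors 16 were measured, 7 of them members. At 3 h 5 of the 16 rose (31.2%) and 2 fell (12.5%), against 17.4% and 25.4% of all probe sets. At 14 h against 0 h 1 rose (6.25%) and 3 fell (18.8%), against 13.5% and 15.2% of all probe sets. Uqcc2, a complex III assembly factor, rose by 1.5 at 3 h and fell by −1.08 at 14 h against 0 h.

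The comparisons of 3 h with 0 h and of 14 h with 9 h share no array, although both come from 1 fit. Of the 52 genes that rose at 3 h, 43 (82.7%) fell between 9 h and 14 h, and these are 91.5% of the 47 that fell. Over all probe sets 821 were in both sets, 38% of those that rose and 65.7% of those that fell. Across the 76 genes the 2 changes had a Pearson correlation of −0.79, against −0.34 over all probe sets, and genes are not independent replicates. The 9 genes that rose at 3 h and did not pass at 14 h against 9 h were Atp5a1, Atp5md, Ndufa9, Ndufs1, Ndufv1, Sdha, Sdhc, Sdhd and Cox6b2. They include 3 of the 4 subunits of complex II and, of complex I, Ndufv1 and Ndufs1.

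Calls differed between members of low and of higher signal. Of the 12 members among the 40% of probe sets with the lowest means, 2 rose and 2 fell at 3 h, at a median of −0.08, and of the 64 above them 50 rose and 5 fell, at a median of 0.78. From 9 h to 14 h none of the 12 was called and 47 of the 64 fell. A fit without the lowest 40% called 1897 of its 7453 probe sets higher and 1585 lower at 3 h. At 14 h against 9 h it called 1191 lower. The part of signal strength in the members' calls was not tested. Probe sets of the same gene differed in places: at 3 h their calls differed in 11 of the 21 genes with several, and in Atp5d and Cox6c they were opposite. The brightest Atp5d probe set changed by 0.78 and another by −0.52, and for Cox6c the values were 0.82 and −0.91. At 14 h against 0 h the calls differed in 9 of the 21 genes, and in none were they opposite.

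In the fit over the 4 times no gene of the 76 was called different between EP2KO and WT cells, as over all probe sets, where 0% were called and 642 of 12422 had an unadjusted p under 0.05, and 3 of the 76 had. The median difference, EP2KO minus WT, was 0.07, with 56 genes above 0 and 20 below, against −0.0025 over all probe sets. The median was 0.01 without either 9 h array, 0.04 without either 0 h array and 0.1 without any other array. Uqcrc1 had the smallest p, at 0.24 ± 0.0835 (limma adjusted p = 0.936), with 11.30, 11.97, 11.52 and 10.51 at 0, 3, 9 and 14 h in EP2KO cells and 10.93, 11.84, 11.26 and 10.32 in WT cells. The EP2KO signal was the higher at all 4 times. Sdhb followed at 0.26 ± 0.108 and Ndufb8 at 0.24 ± 0.104, both with a limma adjusted p of 0.948. A missed threshold does not show that the genotypes were alike.

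At single times, with 1 array per genotype and no test, the median difference was 0.15 at 0 h, −0.06 at 3 h, 0.22 at 9 h and −0.04 at 14 h. The EP2KO signal was the higher in 53 of the 76 genes at 0 h, 26 at 3 h, 62 at 9 h and 33 at 14 h. Medians were positive at 0 and 9 h, where the EP2KO array had the smaller Gapdh difference, 1.48 against 1.86 at 0 h and 1.22 against 1.71 at 9 h. At 3 h the median was slightly below 0 and the EP2KO array had the larger Gapdh difference, 0.96 against 0.80. The median was also slightly below 0 at 14 h, where the EP2KO array had the smaller Gapdh difference, 2.82 against 2.87. The part of the control difference in these shifts was not tested. A difference of at least 0.5 in either direction was seen for Ndufb8 and Sdha at 0 h, for Atp5e and Ndufa6 at 3 h, for Atp5c1 and Atp5o at 9 h and for no gene at 14 h. These are 2.63%, 2.63%, 2.63% and 0% of the members, against 2.68%, 4.08%, 2.49% and 3.65% of all probe sets.

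**Figure D5:**
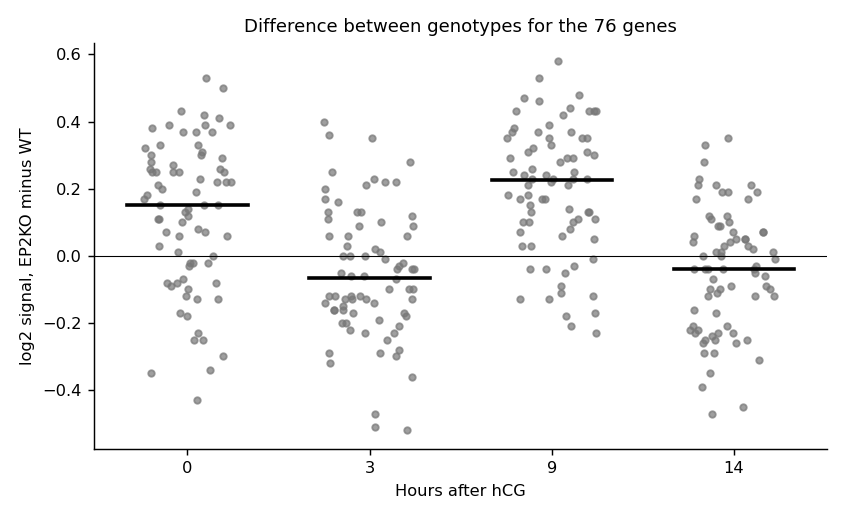
Log2 signal in EP2KO minus WT (y axis) for each of the 76 genes at each hour after hCG (x axis), 1 array per genotype and time, with black bars for the medians. The medians are 0.15, −0.06, 0.22 and −0.04, and nearly all points lie within 0.5 of 0.

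The departure at 14 h, which is the EP2KO minus WT difference at 14 h against that of the 3 earlier times, was called for none of the 76 genes and for 0.0805% of all probe sets, 0.0644% higher and 0.0161% lower. Its median was −0.12 over the members and 0.0267 over all probe sets. An unadjusted p under 0.05 was found for 5 of the 76 members and for 865 of all 12422 probe sets. Ndufs1 had the smallest p, at −0.62 ± 0.195 (limma adjusted p = 0.51), with 9.95, 10.47, 9.81 and 9.29 in EP2KO cells and 9.56, 10.22, 9.52 and 9.60 in WT cells. Sdha, at −0.77 ± 0.243 (limma adjusted p = 0.512), read 7.16, 7.51, 7.0 and 6.95 in EP2KO cells and 6.63, 7.54, 6.61 and 7.42 in WT cells. In both genes the EP2KO signal was below WT at 14 h and above it at 0 h and 9 h. Ndufaf4, a complex I assembly factor, read 7.21, 7.15, 6.90 and 6.39 in EP2KO cells and 6.94, 6.80, 6.58 and 6.63 in WT cells, with −0.55 ± 0.193 (limma adjusted p = 0.568).

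Markers of other cells moved with time as well. Of 8 oviduct epithelium markers 4 (50%) were called higher at 14 h against 9 h, where 10% of all probe sets were. Their summed linear signal was 4882 to 5916 on the 14 h arrays, against 2294 to 2638 on the 6 earlier ones. Ovgp1, an oviduct secretory protein, read 11.46 in EP2KO and 11.13 in WT cells at 14 h, against 7.05 to 7.76 earlier. Of 15 leukocyte markers 5 (33.3%) were called higher at 14 h against 9 h, with sums of 3840 to 4730 at 14 h, against 2545 to 3559 earlier. At 3 h against 0 h 6 (40%) were called lower, where 25.4% of all probe sets were. The sum over 13 cumulus and granulosa markers was 17743 to 20266 at 14 h, against 28140 to 62929 earlier. No marker is at 0 on these arrays, where background gives every probe set a signal. The part of these markers in the changes of the respiratory genes was not tested.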

How the data were processed

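Total RNA of cumulus cells was hybridised to 8 Affymetrix MG_U74Av2 arrays, 1 per genotype and time. Per the labels' protocols 100 ng of total RNA went through 2 rounds of amplification primed at the poly(A) tail (the text names WT cells only). The deposited values are log2 signals, made by the authors with RMA per the submitters' processing notes; of its version the sources used here say nothing. RMA sets no detection call, so low signals may be background. The table holds 12422 probe sets besides 66 Affymetrix controls, which were left out of the tests. Values were used as deposited, with no filter and no added constant.

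Gene symbols are those of the platform annotation, which is old. Of the probe sets 10833 carry 1 symbol, 396 several and 1193 none, and all 76 member genes matched the RefSeq table (GRCm38.p6) by gene ID. Time contrasts and the genotype contrast came from limma 3.58.1 in R 4.3.3, with time and genotype as terms, 3 residual and 7.24 prior degrees of freedom. The 14 h departure is the genotype by 14 h interaction, with 2 residual and 8.2 prior degrees of freedom. P-values are two-sided and Benjamini-Hochberg adjusted across all 12422 probe sets in each contrast (threshold 0.05), and the fit was tested on simulated data. At most 2.55% of values were equal between any pair of arrays. The number of arrays limits the precision.

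Every member may be named; values of each array are given for the 5 largest rises and falls called in a time contrast, for the 3 smallest p-values where none was called, and for tissue isoforms, and a few other members were added after their values were seen. The members, the gene lists and the marker lists were chosen with earlier results of these data known. The lists are markers of cumulus and granulosa cells, oocytes, muscle, adipocytes, theca and stroma, leukocytes, endothelium, erythroid cells and oviduct epithelium, the tissue isoforms, assembly factors, TCA cycle enzymes, protein import, biogenesis regulators, carriers and uncoupling proteins, and the steroidogenic electron chain. Alternatives were median centring, quantile normalization, leaving out the lowest 40% of probe sets, a trended variance prior, probe sets averaged per gene, only the 4 arrays of the 2 times, and leaving out each array; added after seeing the data were the Gapdh 3′ minus 5′ difference as a covariate, both 14 h arrays left out, every member probe set, and only members with a plain probe set name.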

Additional observations from a re-analysis of the deposited data

How the results depend on the processing

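No paired analysis was possible because the labels give every group replicate number 1 only, so no numbers link animals; genotype is a term of the fit. No median of the members and no gene tracked across the alternatives changed sign. With the Gapdh difference as a covariate, chosen after seeing the data, counts of members higher and lower were 0 and 0 at 3 h, 21 and 0 at 9 h, 0 and 0 at 14 h against 0 h and 0 and 0 at 14 h against 9 h, with medians of 0.35, 0.18, −0.04 and −0.23. Single members did change sign there: 37 were positive and 39 negative at 14 h against 0 h with the covariate, against 16 and 60 without it, and 26 and 50 at 14 h against 9 h, against 11 and 65. At 3 h the count lower was 3 with only the 4 arrays of the 2 times and 12 over every member probe set, and the median was 0.34 with quantile normalization and 0.43 over every member probe set. At 9 h the count lower was 3 with quantile normalization, 0 without the lowest 40% of probe sets, 2 with a trended prior, 3 with probe sets averaged per gene, 0 with only 4 arrays and 3 over every member probe set, and the median was 0.37 without the lowest 40% and 0.17 over every member probe set. At 14 h against 0 h the median was −0.47 with quantile normalization and −0.21 over every member probe set. At 14 h against 9 h 1 member was higher with quantile normalization and over every member probe set, 25 were lower with only 4 arrays, and the median over every member probe set was −0.52. Leaving out 1 array at a time gave 36 to 52 higher, 1 to 7 lower and medians of 0.54 to 0.73 at 3 h; 13 to 31, 0 to 1 and 0.2 to 0.31 at 9 h; 1 to 2, 22 to 34 and −0.41 to −0.24 at 14 h against 0 h; and 0 to 1, 38 to 49 and −0.86 to −0.68 at 14 h against 9 h. For EP2KO against WT it gave 0 calls and medians of 0.01 to 0.1, and for the departure 0 calls and −0.22 to −0.06. Of the values of single genes under other settings 452 kept their side of the threshold and 39 lost it. The 452 include genes of the genotype contrast and the 14 h departure, which had not passed in the main fit. With the Gapdh covariate every gene tracked at 3 h and in both 14 h comparisons lost its call. Ndufa6, Cox7b, Atp5l and Atp5e were among these. Cox8c, Atp5g1, Cox7a1, Cox8b and Ndufs4 were among the 39 losses too. The median of all probe sets at 3 h was −0.135 as deposited, −0.06 with arrays centred on their medians and −0.0531 with quantile normalization. The cause of these moves was not tested.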

Other observations

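Other mitochondrial genes were described by lists chosen with earlier results known, with no set test. Over all probe sets 17.4% were called higher and 25.4% lower at 3 h against 0 h. At 14 h these shares were 13.5% and 15.2% against 0 h, and 10% and 10.1% against 9 h. Of 23 genes of protein import into mitochondria 18 rose (78.3%) and none fell at 3 h against 0 h, at a median of 0.58. From 9 h to 14 h 12 fell (52.2%) and none rose, at a median of −0.52. Grpel1, which exchanges nucleotides for the matrix chaperone of import, read 8.47, 9.87, 9.47 and 7.72 at 0, 3, 9 and 14 h in EP2KO cells and 8.13, 9.96, 9.04 and 7.55 in WT cells. It rose by 1.62 ± 0.142 at 3 h (limma adjusted p = 6.18e-05) and fell by −1.62 at 14 h against 9 h. Tomm7, a small protein of the outer membrane pore, rose by 0.97 at 3 h and 1.09 at 9 h. Of 17 TCA cycle enzymes, 4 of them the complex II subunits, 12 rose (70.6%) and 2 fell (11.8%) at 3 h, and 7 fell (41.2%) at 14 h against 0 h. Fh1, fumarase, did not pass at 3 h, at 0.41, and fell by −0.82 at 9 h and by −1.30 at 14 h against 0 h. Idh3g, a regulatory subunit of isocitrate dehydrogenase, rose by 0.95 at 3 h and fell by −0.92 at 14 h. The Gapdh 3′ minus 5′ difference was also smallest at 3 h and largest at 14 h, and its part in these changes was not tested.

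Of 15 regulators of mitochondrial biogenesis 6 rose (40%) and 6 fell (40%) at 3 h, against 17.4% and 25.4% of all probe sets. Gabpa, the DNA-binding subunit of the ETS factor whose motif was searched above, read 7.92, 8.36, 8.60 and 9.20 at 0, 3, 9 and 14 h in EP2KO cells and 7.71, 8.50, 8.45 and 9.80 in WT cells. It was highest at 14 h in both genotypes, a rise of 1.68 ± 0.18 against 0 h (limma adjusted p = 6.51e-05), at the time when the respiratory genes were lowest. Gabpb1, its partner subunit, fell by −1.20 ± 0.138 at 3 h (limma adjusted p = 0.000227). Of 8 carriers, channels and uncoupling proteins 4 rose (50%) and 1 fell (12.5%) at 3 h. At 14 h against 0 h 1 rose (12.5%) and 3 fell (37.5%), against 13.5% and 15.2% of all probe sets. Vdac2, an outer membrane channel, was 0.74 higher at 14 h against 0 h, and Slc25a5, an ADP/ATP carrier, fell by −0.95. In the steroidogenic chain of mitochondria, all 3 measured genes, Star, Cyp11a1 and Fdx1, were higher at 14 h against 0 h, by 2.12, 3.11 and 2.78.

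Among members with a searched promoter motif 23 of 35 rose at 3 h, against 17 of 26 without one, and 20 of 35 fell at 14 h against 0 h, against 10 of 26 without one. Summed linear signals of the other marker lists on the 14 h arrays, against all earlier arrays, were 1708 to 1797 against 1493 to 2083 for oocytes, 5531 to 5694 against 4059 to 6218 for muscle, 3384 to 3887 against 2847 to 3952 for adipocytes, 3168 to 3267 against 2402 to 3823 for theca and stroma, 2162 to 2379 against 1972 to 2625 for endothelium and 3124 to 3474 against 1528 to 12517 for erythroid cells.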
